A study of Rattus norvegicus with 8 samples.

Results

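The genes described here encode the ephrin, Slit-Robo and netrin families of axon guidance signals in the striatum of rats that self-administered methamphetamine (METH) or saline. They were taken by a rule on names. It took every row of the count table whose symbol starts with Epha, Ephb, Efna, Efnb, Slit, Robo or Ntn and a digit. It also took those that start with Unc5, and Dcc. Earlier results of these data were known when the genes were chosen. The rule gave 36 genes of 17337 listed. Of these, 34 are guidance genes. The remaining 2, Unc50 and Unc5cl, are not netrin receptors and were taken only by the start of their name. They are described apart below, but counts and medians over the 31 genes tested include Unc50. Striatal mRNA was sequenced in 8 male wild-type Sprague-Dawley rats, 4 in the METH group and 4 in the saline group. After anaesthesia with ketamine and xylazine brain tissue was taken from both groups. Rats of both groups were trained to press a lever for food and carried a jugular catheter, and they then infused METH dissolved in saline, or saline alone, in daily sessions. Per the methods, rats with stable lever pressing in the last days of self-administration, 4 per group, were chosen for plasma sampling. The methods do not state whether the 8 sequenced rats are the same animals. If they are, they are a selected part of the rats that self-administered, of which more took METH than saline. Each library holds the poly(A) RNA of 1 rat, and the ages of the rats and the time from the last session to tissue collection are not given in the sources used here.

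Guidance molecules steer growing axons and later act at synapses, dendritic spines and blood vessels. Ephrins sit on the surface of 1 cell and bind Eph receptor tyrosine kinases on the next, and signals pass into both cells. Slits are secreted and repel axons through Robo receptors. Netrins are secreted laminin-like proteins that attract axons through Dcc and repel them through the Unc5 receptors. In the striatum these families are known for sorting striosome from matrix neurons and for guiding dopaminergic and cortical axons into the region.

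Total counts lay between 18135939 and 21211920 per rat, and a floor of 3 counts was then 0.142 to 0.169 CPM, the count relative to a library size that the TMM method had scaled for composition. All 9 fixed markers of striatal projection neurons were measured, with a summed level of 14374 to 15159 CPM in the saline group and 15207 to 19248 CPM in the METH group, so markers of the labelled tissue were present in each library. Hypothalamic markers were at 33.3 CPM in saline rat 2 and 71.5 CPM in METH rat 4, against 1.87 to 6.12 CPM elsewhere. Saline rat 1 stood apart in markers of cortical excitatory neurons (79.4 CPM summed over 5 listed markers against 3.35 to 13.5 CPM in the other 7 rats). On the first principal component of all genes tested, which carried 26.36% of the variance, METH rat 3 lay at 39.546 and saline rat 3 at -24.604, at the opposite ends. The part of these rats in the results below is given by values without them.

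None of the guidance genes passed the test for a difference between METH and saline. Of the 36 listed, 31 had enough counts to be tested, and 0 were called, which required a false discovery rate (FDR) below 0.05 in the edgeR quasi-likelihood test and, on average, a log2 CPM over 1. Unc5d and Ntn5, at an average log2 CPM of 0.53 and 0.17, were under this limit and could not be called at any FDR. Without the limit 0 of the 31 were called as well. Of all 12014 genes tested 0.516% were called, 0.449% higher and 0.0666% lower in METH rats. Before adjustment p was below 0.05 in 5 of the 31 (16.1%), Epha5, Slit1, Unc5b, Unc5c and Unc5d, all of them lower in METH rats. Among all genes tested 11.1% had such a p, 4.88% with a lower and 6.26% with a higher level in METH rats. Other tools gave between 5 and 6 such genes and likewise 0 calls (5 with the Wald test of DESeq2 and 6 with limma-voom). Without saline rat 3 the number was 3, without METH rat 3 it was 4, without METH rat 1 it was 3, without saline rat 4 it was 8, and without saline rat 1 it was 6.

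The levels of most of these genes were slightly lower in the METH group. On the log2 scale the fold change (METH over saline) was below 0 in 25 of the 31 genes (80.6%, against 51.4% of all genes tested), and its median was -0.15 against -0.01 over all genes. In 12 of the 31 (38.7%) all 4 METH rats were below the saline mean, against 17.0% of all genes, and in 2, Efnb1 and Slit3, all 4 were above it. Fold changes are given below as log2 ± the standard error (SE) of the edgeR fit, and they ran from -0.96 for Unc5d to 0.24 for Slit3. Standard errors ran from 0.08 for Ephb1 to 0.45 for Ntn5. The genes were not compared with other genes by a set test. With saline rat 3 and METH rat 3 both left out, a setting chosen after the data were seen, the median was -0.02 and 22 of the 31 genes were below 0.

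**Figure D1:**
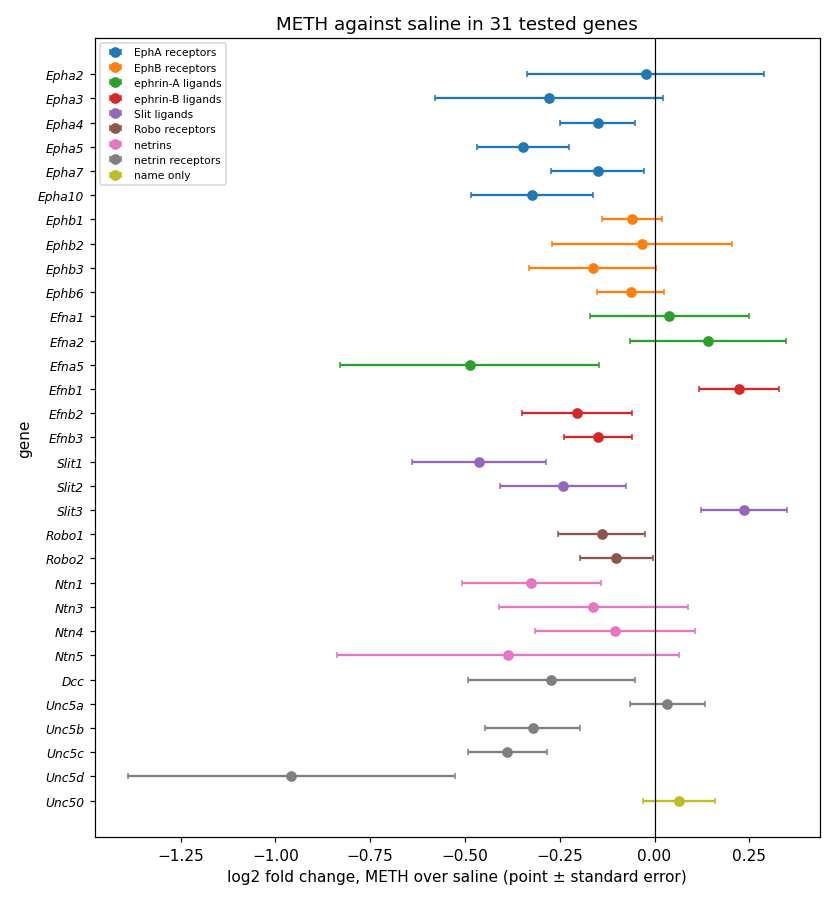
Log2 fold change of METH over saline (horizontal axis, point ± standard error, 4 rats per group) for the 31 genes tested, coloured by role. Most points lie left of 0, Unc5d lies farthest left at -0.96 with a wide error, and no gene passed an FDR of 0.05.

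**Figure D2:**
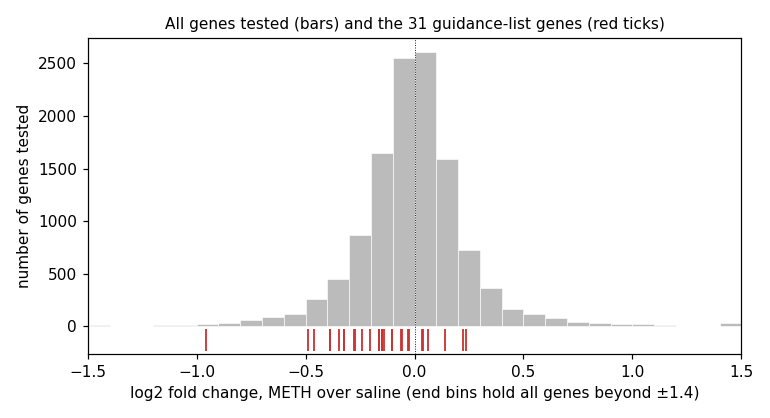
Number of genes tested per bin of log2 fold change (bars, bins of 0.1, 12014 genes) with the 31 guidance-list genes as red ticks below the axis. The ticks lie inside the body of the distribution apart from Unc5d, and 25 of them are below 0.

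Of the 31 guidance-list genes tested, Unc5c, a netrin receptor, had the lowest p, followed by Epha5 and Slit1 of other roles. Of 5 netrin receptors, Dcc and Unc5a to Unc5d, all were tested, 4 had a log2 fold change below 0 and 3 had an unadjusted p below 0.05. Unc5c, a repulsive netrin receptor with a death domain, was at 23.4, 21.4, 23.6 and 26.8 CPM in saline rats 1 to 4 and at 16.9, 19.2, 18.5 and 18.2 CPM in METH rats 1 to 4. The highest METH rat lay under the lowest saline rat, so the groups did not overlap. The means were 23.8 ± 2.23 CPM (SD, n = 4) in the saline group and 18.2 ± 0.944 CPM (SD, n = 4) in the METH group, a level 23.6% lower in the ratio of the fit. The log2 fold change was -0.39 ± 0.11 (SE), with an edgeR p of 0.00259 before and an FDR of 0.175 after adjustment over all genes. The exact permutation test of log2 CPM over the 70 labelings gave a two-sided p of 0.0286, the smallest that 4 rats against 4 allow. Omitting single rats kept the estimate for Unc5c between -0.44 and -0.33, with an unadjusted p below 0.05 in 8 of 8 fits. Its FDR came nearest to the threshold with the Wald test of DESeq2, at 0.0501, in a range from 0.0501 to 0.467 over all alternatives.

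Unc5d, a further repulsive receptor of the group, had few counts. It was at 1.48, 2.40, 1.93 and 1.28 CPM in saline rats 1 to 4 and at 1.03, 1.14, 0.282 and 1.16 CPM in METH rats 1 to 4. The groups did not overlap here either, although METH rat 3, with 5 counts, lay far below the other METH rats. On the log2 scale the fold change was -0.96 ± 0.43 (SE), with an edgeR p of 0.0441 before and an FDR of 0.431 after adjustment over all genes. Without METH rat 3 or without saline rat 2 the unadjusted p was above 0.05, as it was with 2 of the other rats left out, and the log2 fold change ranged from -1.09 to -0.67 over these 8 fits. Unc5c and Unc5d were the only members tested whose groups did not overlap, 2 of 31 (6.45%) against 6.39% of all genes tested, and both lower, where 2.65% of all genes were separated in that direction and 3.75% in the other.

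Unc5b, the netrin receptor with the most counts, known also from endothelial tip cells, was at 38.0, 52.9, 54.6 and 47.8 CPM in saline rats 1 to 4 and at 42.5, 41.3, 39.4 and 31.5 CPM in METH rats 1 to 4. Saline rat 1 lay within the METH range, so the groups overlapped. The log2 fold change was -0.32 ± 0.13 (SE), with an edgeR p of 0.0224 before and an FDR of 0.371 after adjustment over all genes, and the exact permutation p was 0.114. Leaving out a rat kept the unadjusted edgeR p of Unc5b below 0.05 in 5 of 8 fits. It was 0.0793 without METH rat 4, 0.0672 without saline rat 3 and 0.0654 without saline rat 2. Without saline rat 1 the log2 fold change was -0.42, with an unadjusted edgeR p of 0.0028 and an FDR of 0.197. The 5 endothelial markers summed to 381.6 to 550.1 CPM in the saline group and to 381.1 to 409.6 CPM in the METH group, with 2 of 5 lower and 0 higher at an unadjusted p below 0.05 and none called. Their part in the value of Unc5b was not tested. In these bulk samples, fewer cells of a type and less RNA per cell cannot be told apart.

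Unc5a was at 35.1 ± 3.40 CPM (SD, n = 4) in saline and 35.9 ± 3.03 CPM (SD, n = 4) in METH rats, with a log2 fold change of 0.03 ± 0.10 (SE) that was just below 0 when scaled by total counts. Dcc, the attractive netrin receptor, was at 13.8, 18.2, 29.0 and 25.4 CPM in saline rats 1 to 4 and at 13.6, 23.1, 14.7 and 20.3 CPM in METH rats 1 to 4. Both groups spanned a wide and shared range, and its log2 fold change was -0.27 ± 0.22 (SE, edgeR FDR 0.662). Without saline rat 1 its unadjusted p was 0.0488, and this was the only fit with a rat left out in which it was below 0.05. Its log2 fold change was -0.10 without saline rat 3 (unadjusted edgeR p 0.656) and -0.01 with both rats numbered 3 left out.

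**Figure D3:**
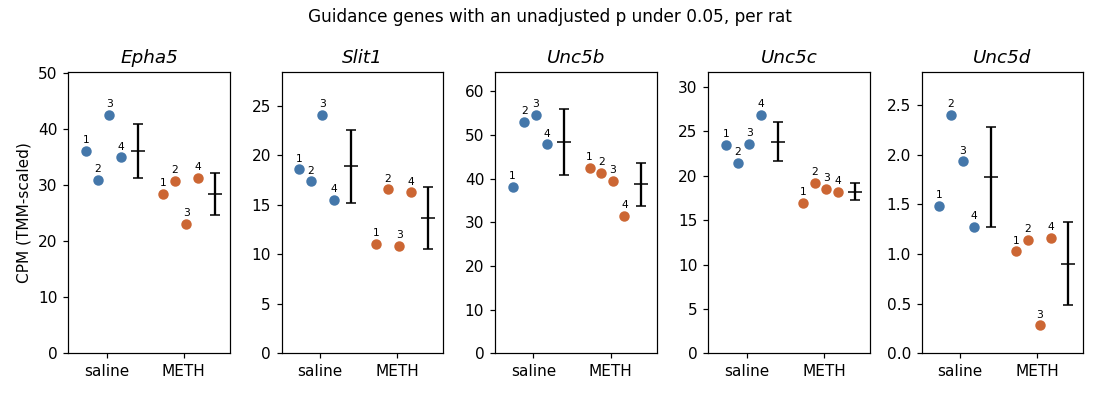
TMM-scaled CPM of the 5 genes with an unadjusted p below 0.05 (vertical axes start at 0), with 1 numbered point per rat and the mean ± SD of 4 rats beside each group. The groups do not overlap for Unc5c and Unc5d and overlap for Epha5, Slit1 and Unc5b.

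The ligands of these receptors, the netrins, were all tested, and all 4 had a log2 fold change below 0, from -0.39 for Ntn5 to -0.10 for Ntn4, with none below an unadjusted p of 0.05. Ntn1, the netrin that attracts axons through Dcc, had the most counts of the 4, with 22.0, 22.2, 38.1 and 21.3 CPM in saline rats 1 to 4 and 20.9, 23.8, 16.2 and 21.6 CPM in METH rats 1 to 4. Saline rat 3 was far above the other 7 rats. The estimated log2 fold change of Ntn1 was -0.32 ± 0.18 (SE, edgeR FDR 0.512) and came to -0.08 without saline rat 3. Ntn3 and Ntn4, a basement membrane netrin, ranged from 2.84 to 6.13 CPM and from 5.99 to 11.6 CPM over the 8 rats, and both had a log2 fold change above 0 without saline rat 3. Ntn5 lay between 1.10 and 1.21 CPM in the saline group and between 0.245 and 1.24 CPM in the METH group, the low end being METH rat 1 with 5 counts. Without that rat its log2 fold change was -0.07 rather than -0.39.

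Among the Slits, Slit1 and Slit3 differed in the sign of their fold change. Slit1, a repellent made mainly by neurons, was at 18.6, 17.4, 24.1 and 15.5 CPM in saline rats 1 to 4 and at 11.1, 16.6, 10.9 and 16.3 CPM in METH rats 1 to 4. METH rats 1 and 3 were below all saline rats, while METH rats 2 and 4 lay above saline rat 4. The log2 fold change was -0.46 ± 0.18 (SE), with an edgeR p of 0.0204 before and an FDR of 0.358 after adjustment over all genes, and the exact permutation p was 0.0857. Leaving out a rat gave an unadjusted p below 0.05 in 5 of 8 fits, and the highest, 0.0811, came without saline rat 3. Slit3 was at 58.0, 46.1, 70.04 and 64.5 CPM in saline rats 1 to 4 and at 68.0, 74.6, 72.2 and 66.4 CPM in METH rats 1 to 4. All METH rats were above the saline mean, but saline rat 3 lay within their range. Its log2 fold change was 0.24 ± 0.11 (SE, edgeR p 0.0561 unadjusted and FDR 0.460), and with a rat left out the unadjusted p ranged from 0.0115 without saline rat 3 to 0.178 without saline rat 2, where the log2 fold change was 0.13. Slit2 had a log2 fold change of -0.24 ± 0.17 (SE), and -0.13 without saline rat 3. Whether Slit1 and Slit3 differed from each other in their response was not tested.

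Neither of the 2 Robo receptors tested had an unadjusted p below 0.05. Robo2 was at 146.3, 152.9, 181.1 and 192.6 CPM in saline rats 1 to 4 and at 165.8, 159.1, 140.1 and 162.3 CPM in METH rats 1 to 4, with a log2 fold change of -0.10 ± 0.10 (SE, edgeR FDR 0.714). The METH rats lay inside the saline range except for METH rat 3. Robo1 had a log2 fold change of -0.14 ± 0.12 (SE), which came to -0.03 without saline rat 3, and that of Robo2 came to -0.03 without saline rat 4. Robo3, known from commissural axons, had 0 to 13 counts per rat, and Robo4, a receptor of blood vessel cells, had 0 counts in 6 rats and 2 counts in each of METH rats 1 and 4. Neither was tested. At this depth counting error alone allows a level of up to 0.142 to 0.169 CPM at 0 counts. The annotation by which reads were assigned to these genes is not known, so low counts need not mean low expression. The endothelial marker Cldn5 had 3855 to 6092 counts in the same libraries.

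Of 7 EphA receptors listed, 6 were tested, and all 6 had a log2 fold change below 0, from -0.35 for Epha5 to -0.02 for Epha2. Epha6 and Epha8 were not listed. Epha5, which takes part in topographic mapping of axons, was at 36.1, 30.9, 42.5 and 34.9 CPM in saline rats 1 to 4 and at 28.4, 30.8, 23.0 and 31.3 CPM in METH rats 1 to 4. Of the METH rats only rat 4 was above the lowest saline rat, saline rat 2. The means were 36.1 ± 4.81 CPM (SD, n = 4) and 28.4 ± 3.76 CPM (SD, n = 4). On the log2 scale the fold change was -0.35 ± 0.12 (SE), with an edgeR p of 0.0130 before and an FDR of 0.311 after adjustment over all genes, and the exact permutation p was 0.0571. The unadjusted p of Epha5 was below 0.05 in 8 of the 8 fits that left out a rat, at most 0.0498 without saline rat 3, and its log2 fold change was -0.17 with saline rat 3 and METH rat 3 both left out.

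The promoters of Epha5 and Unc5b are shown because these are the 2 of the 5 genes with an unadjusted p below 0.05 that are in the RefSeq promoter table used here (assembly GRCr8), which holds 29 of the 36 genes. No entry was used for Slit1, Unc5c and Unc5d. Each line gives the 250 bases before the start of the gene, 5′ to 3′ on its own strand, with GC boxes (GGGCGG on either strand) in capitals. Epha5 is at chr14:24007872-24008121 on the plus strand and Unc5b at chr20:29307271-29307520 on the minus strand.
Epha5: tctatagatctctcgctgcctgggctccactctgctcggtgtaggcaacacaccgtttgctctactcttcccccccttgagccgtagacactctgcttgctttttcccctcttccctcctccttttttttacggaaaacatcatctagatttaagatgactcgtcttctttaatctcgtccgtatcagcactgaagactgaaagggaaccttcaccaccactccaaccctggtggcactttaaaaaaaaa
Unc5b: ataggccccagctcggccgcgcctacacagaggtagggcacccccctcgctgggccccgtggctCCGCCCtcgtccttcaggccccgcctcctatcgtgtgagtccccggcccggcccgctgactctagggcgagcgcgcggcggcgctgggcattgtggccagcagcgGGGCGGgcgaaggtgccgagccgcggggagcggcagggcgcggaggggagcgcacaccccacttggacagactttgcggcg
The window of Epha5 had 0 GC boxes and 8 CpG dinucleotides, and that of Unc5b had 2 GC boxes and 30 CpG dinucleotides. Among all 33469 promoter windows of this length 30.5% held a GC box and the median was 5 CpG dinucleotides. A GC box was in a window of 15 of the 29 matched genes. This is a count of genes, while the share over all promoters is of windows, so they are not a like comparison. A cAMP response element (TGACGTCA, which is the same on both strands) was in neither window, and it was in 1.59% of all windows. These are matches of letters only, and the 2 genes with similar fold changes had promoters of unlike base composition, with 47.6% and 75.2% G and C.

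Epha4, a receptor of both ephrin classes that marks the striatal matrix, had the most counts of the EphA genes. It was at 260.1, 262.8, 324.3 and 304.5 CPM in saline rats 1 to 4 and at 281.5, 282.8, 219.5 and 253.8 CPM in METH rats 1 to 4. METH rats 3 and 4 were below all saline rats and METH rats 1 and 2 lay within their range. Its log2 fold change was -0.15 ± 0.10 (SE, edgeR FDR 0.574) and -0.02 with both rats numbered 3 left out. Epha10, whose kinase domain is inactive, had a log2 fold change of -0.32 ± 0.16 (SE, edgeR p 0.0649 unadjusted), and Epha3 and Epha7 had -0.28 and -0.15. These values were smaller in size with certain rats left out. Epha10 ranged from -0.41 to -0.14 with a rat left out, the latter without saline rat 2. Epha3 and Epha7 were at -0.04 and -0.06 without METH rat 3. Epha2, best known from epithelia, was at 2.30 to 2.57 CPM in METH rats 1, 2 and 4 and at 5.87 CPM in METH rat 3, so a fold change near 0 stood beside a wide METH range. Epha1 had 1 to 7 counts per rat and was not tested.

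All 4 EphB receptors listed were tested, with log2 fold changes between -0.16 and -0.03 and none with an unadjusted p below 0.05. Ephb4 was not listed. Ephb1, with the most counts of the 4, was at 122.4, 119.7, 137.1 and 127.5 CPM in saline rats 1 to 4 and at 121.4, 134.1, 119.5 and 111.3 CPM in METH rats 1 to 4. The groups overlapped throughout, and the log2 fold change was -0.06 ± 0.08 (SE, edgeR FDR 0.804). Over all 8 rats the highest value of Ephb1 was 1.23 times the lowest, the narrowest range of the 31 guidance-list genes tested. That of Ephb6, whose kinase domain is inactive, was 1.24 times. Ephb3 and Ephb2 had log2 fold changes of -0.16 and -0.03, and Ephb2, a synaptic receptor that binds NMDA receptors, had only 49 to 93 counts per rat.

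The ephrins were split in direction. Of the 3 ephrin-B ligands, which cross the membrane and signal back into their own cell, Efnb1 was at 20.4, 19.4, 21.9 and 20.9 CPM in saline rats 1 to 4 and at 24.6, 21.3, 27.6 and 23.0 CPM in METH rats 1 to 4. Only METH rat 2 lay within the saline range. The log2 fold change of Efnb1 was 0.22 ± 0.11 (SE), with an edgeR p of 0.0562 before and an FDR of 0.460 after adjustment over all genes, and the exact permutation p was 0.0571. Efnb3, which stops axons at the midline and had the most counts of the ephrins, was at 192.2, 193.1, 203.4 and 167.1 CPM in saline rats 1 to 4 and at 148.2, 190.5, 170.1 and 172.9 CPM in METH rats 1 to 4. These ranges overlapped, with a log2 fold change of -0.15 ± 0.09 (SE, edgeR FDR 0.539) that was -0.09 without METH rat 1. Efnb2, a marker of arteries as well as a neuronal ligand, had a log2 fold change of -0.20 ± 0.15 (SE), which ranged from -0.32 without saline rat 2 to -0.07 without saline rat 3.

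Ephrin-A ligands are held in the membrane by a lipid anchor. Of the 4 listed, 3 were tested and none had an unadjusted p below 0.05. Efna3 was not listed. Efna2 had the most counts, with 10.5, 9.30, 10.7 and 9.17 CPM in saline rats 1 to 4 and 8.37, 12.3, 15.5 and 7.59 CPM in METH rats 1 to 4. The METH rats lay on both sides of the saline range, and the log2 fold change of 0.14 ± 0.21 (SE) turned to -0.07 without METH rat 3. Efna5, a ligand of Epha5 and Epha7 in axon mapping, was at 2.65 to 4.83 CPM in the saline group and at 1.13 to 3.52 CPM in the METH group, with a log2 fold change of -0.49 ± 0.34 (SE, edgeR FDR 0.600). Its lowest value was again METH rat 3, without which the log2 fold change was -0.24. Efna1 had a log2 fold change of 0.04, and Efna4, with 2 to 22 counts per rat, was not tested.

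The remaining 2 genes of the name rule have other functions. Unc50, a conserved protein of the secretory pathway, had a log2 fold change of 0.06 ± 0.10 (SE, edgeR FDR 0.827). Unc5cl, a membrane protein related to Unc5c, had 0 to 4 counts per rat and was not tested. Without both, 30 guidance genes were tested, and 25 of them (83.3%) had a log2 fold change below 0. Their median was -0.16, and the counts of called genes and of genes with an unadjusted p below 0.05 stayed at 0 and 5.

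Single rats stood out across the roles. Saline rat 3 had the highest CPM of all 8 rats in 16 of the 31 genes, and METH rat 3 had the lowest in 12. The median deviation from the saline mean of log2 CPM was 0.17 in saline rat 3 and -0.25 in METH rat 3. In the other rats it was -0.05, -0.09 and 0.01 (saline rats 1, 2 and 4) and -0.17, -0.01 and -0.18 (METH rats 1, 2 and 4). METH rat 2 thus lay within the saline rats, and METH rats 1, 3 and 4 lay below them. Among these 31 genes METH rat 3 was also highest in 4, Epha2, Efna2, Efnb1 and Unc50. The same rat had the highest summed level of striatal projection neuron markers, 19248 CPM, and the part of cell composition in these deviations was not tested.

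**Figure D4:**
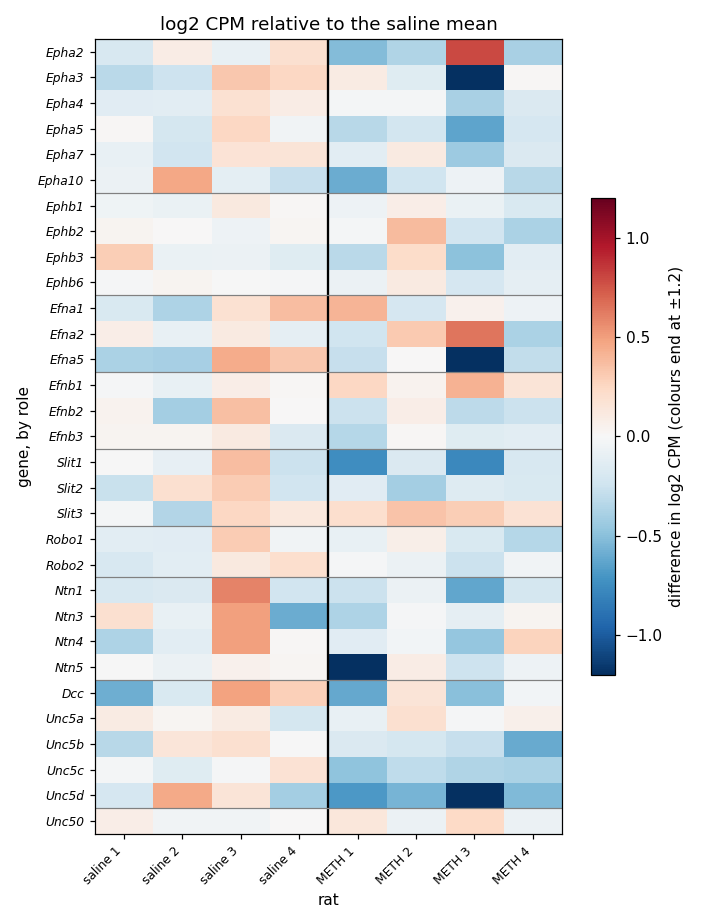
Difference in log2 CPM from the saline mean for the 31 genes tested (rows, grouped by role) in each of the 8 rats (columns, saline left of the line), with red for higher and blue for lower values. Saline rat 3 is red in most rows, METH rat 3 is blue in 25 of the 31 rows, and Unc5c is blue in all 4 METH rats.

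Partner genes of the same pathways showed single genes with low p values and no calls. Of all genes tested 0.516% were called, 11.1% had an unadjusted p below 0.05 and 6.39% had groups that did not overlap. Of 19 other ligands, co-receptors and cutting enzymes, 16 were listed and tested. Among these 0 were called and 1 (6.25%) had an unadjusted p below 0.05. It was Dscaml1, an adhesion molecule related to the netrin-binding Dscam, with a log2 fold change of -0.36 ± 0.11 (SE, edgeR FDR 0.260) and groups that did not overlap. Of 33 cytoplasmic effectors, 30 were listed and tested, 0 were called and 4 (13.3%) had an unadjusted p below 0.05, 3 of them lower. Chn1, a Rac GTPase-activating protein whose longer form acts downstream of Epha4, was at 805.0, 748.0, 846.1 and 918.4 CPM in saline rats 1 to 4 and at 604.1, 637.5, 524.5 and 739.4 CPM in METH rats 1 to 4. These groups did not overlap either, with a log2 fold change of -0.41 ± 0.10 (SE, edgeR p 0.00126 unadjusted and FDR 0.126). Its relative Chn2 and the kinase Abl1 had log2 fold changes of -0.22 and -0.32, and Nck2, an adaptor that binds phosphorylated ephrin-B, had 0.25. Groups that did not overlap made up 6.25% of the ligands and co-receptors tested and 3.33% of the effectors tested. The median log2 fold change was -0.05 over the ligands and co-receptors and -0.03 over the effectors.

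Among the fixed markers of other cells 1 gene was called, the microglial Cx3cr1, which was lower in METH rats. The 5 microglial markers summed to 229.0 to 268.5 CPM in the saline group and to 187.5 to 233.2 CPM in the METH group, with 2 of 5 lower at an unadjusted p below 0.05, Cx3cr1 included. The 3 markers of oligodendrocyte precursors summed to 124.3 to 164.2 CPM and to 116.7 to 127.8 CPM, with 2 of 3 lower at such a p. The 4 pericyte and smooth muscle markers summed to 108.8 to 160.9 CPM and to 113.1 to 145.5 CPM, with 2 higher and 1 lower. The sums of the 6 oligodendrocyte markers (12874 to 18636 CPM and 12166 to 18143 CPM) and the 5 astrocyte markers (1905 to 2133 CPM and 1784 to 2329 CPM) had none at such a p. In each of these lists the sums of the groups overlapped. They did not overlap for the 9 projection neuron markers, whose sums are given above and of which 3 were higher and 0 lower. The largest part of these sums was Ppp1r1b, at 6785 to 7594 CPM in the saline group and 7456 to 10288 CPM in the METH group. Taken alone, each of the 9 markers overlapped between the groups. The sums of the 4 choroid plexus markers did not overlap either. They were at 3.95 to 5.55 CPM in the saline group and 5.62 to 8.91 CPM in the METH group, with 1 of 2 tested higher. The part of these cells in the guidance gene values was not tested.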

How the data were processed

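Poly(A) RNA of the striatum was sequenced for 4 rats per group, 8 in all. Per the methods and the submitters' processing notes, reads were trimmed (Cutadapt 1.18), mapped to the rn6 build (STAR 2.7.0e) and assigned to genes (featureCounts of Subread 1.6.4). The authors deposited the resulting raw counts, 1 column per rat. The annotation, strand setting and handling of multi-mapped reads are not given in the sources used here, so overlapping genes cannot be told apart.

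All other values were computed with R 4.3.3 and edgeR 4.0.16. Genes were filtered with filterByExpr (minimum count 10), normalized with TMM and tested by the quasi-likelihood F-test over all genes with Benjamini-Hochberg adjustment, after the fit was tested on simulated data. The standard error is the log2 fold change divided by the square root of F. Log2 CPM used a prior count of 2. Libraries of the same group differed beyond sampling noise (10.4 to 28.6 chi-square per degree of freedom). Each p-value sets a difference between the groups against the spread between these 4 animals per group. In the edgeR fit the spread of each gene was moderated with that of all genes tested. Intervals and floors from counts cover counting error only. Depth was 18135939 to 21211920 counts per rat.

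Genes named in full were those with an unadjusted p below 0.05, those without overlap, and the gene with the highest CPM in each role. The values of Efnb1, Dcc and Chn1 in each rat were added after they were seen. The genes and lists were chosen with earlier results of these data known. Gene lengths were not used, so levels were not otherwise compared between genes. Alternatives were other scalings, tests (DESeq2 1.42.0, limma 3.58.1, edgeR likelihood ratio and exact tests), filters, thresholds, each rat left out and a replicate block.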

Additional observations from a re-analysis of the deposited data

Results flagged for a closer look

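Within each group of 4 rats, 6 of 62 groups of guidance-list gene values held a rat that lay apart. The gap between this rat and the next one in log2 CPM, divided by the whole range, was above the 95% critical value of Dixon's test, which chance passes in about 5% of groups, or 3.1 here. METH rat 3 accounted for 3 of them. It stood apart in Epha2 (gap over range 0.883), at 5.87 CPM against 2.30 to 2.57 CPM in the other METH rats, in Epha3 (0.834), at 1.69 CPM against 4.05 to 4.80 CPM, and in Unc5d (0.907), at 0.282 CPM against 1.03 to 1.16 CPM. METH rat 2 stood apart in Efnb2 (0.867), at 35.4 CPM against 26.9 to 27.9 CPM, and in Slit2 (0.841), at 7.71 CPM against 9.07 to 9.35 CPM. Saline rat 3 stood apart in Ntn1 (0.930), at 38.1 CPM against 21.3 to 22.2 CPM in the other saline rats. The causes were not tested.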

How the results depend on the processing

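The count of called guidance genes was 0 under every alternative run. The median log2 fold change of the guidance-list genes ranged from -0.21 to -0.08 with a rat left out. It moved beyond the spread between rats (SD 0.107) only with saline rat 3 and METH rat 3 both left out, to -0.0158, where 3 genes had an unadjusted p below 0.05 (Epha10, Slit3 and Unc5c) and 37 genes were called over all genes. That setting and the one without Unc50 and Unc5cl were chosen after the data were seen. With a rat left out, the number of guidance genes with an unadjusted p below 0.05 ranged from 3 (without saline rat 3 or METH rat 1) to 8 (without saline rat 4), and the number of all genes called from 37 (without saline rat 2) to 70. Over all genes the Wald test of DESeq2 called 191 genes, the likelihood ratio test 170, the exact test 168 and the replicate block 37, against 62, and the cause was not tested. Rats with the same label number are different animals. Deviations of same-numbered rats correlated at -0.0851 on average, and 1 of 4 saline rats correlated best with its own number. With the replicate block 4 guidance genes had an unadjusted p below 0.05 (Unc5d was no longer among them) and 0 guidance genes were called.

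The sign of 10 guidance-list genes turned under at least 1 alternative, among them Ntn1 (-0.325) and Epha3 (-0.278), whose values were not near 0. Unc5a was at -0.0014 with total counts, which moved the median of all genes from -0.0055 to -0.0411. With both rats numbered 3 left out, Efna2 was at -0.0331, Epha3 at 0.0771, Ephb2 at 0.0070, Ntn1 at 0.0213, Ntn3 at 0.0292, Ntn4 at 0.198 and Unc50 at -0.0148. With a rat left out, the sign turned for Efna1 (-0.0977 to 0.176), Efna2 (-0.0714 to 0.280), Epha2 (-0.444 to 0.117), Ephb2 (-0.207 to 0.0694), Ntn3 (-0.330 to 0.0272), Ntn4 (-0.234 to 0.0869) and Unc5a (-0.0332 to 0.0749). Efna4, Epha1, Robo3, Robo4 and Unc5cl were below the filter, and the cause of their low counts was not tested. When genes with 1 or more counts were all tested, these 5 had an FDR from 0.542 to 1.00.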
